A study of Mus musculus with 12 samples.

Results

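The transcription regulators of meiosis and spermiogenesis described here are 9 genes, Mybl1, Tcfl5, Tbpl1, Taf7l, Rfx2, Sox30, Crem, Fhl5 and Spz1, in testes of ICR mice. They were chosen by name, through the NCBI Gene ID of each row, and are 9 of the 22221 rows of the expression table. All 9 were found, and each had at least 1.31 FPKM in every library, where FPKM are the authors' fragments scaled by transcript length and library total.

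These genes make up much of the relay that carries a germ cell from meiosis to the shaping of the sperm. Mybl1 encodes A-MYB, the factor that opens the pachytene programme in spermatocytes and drives many of the genes used there and later, Rfx2 and Tcfl5 among its reported targets. Tcfl5 encodes a basic helix-loop-helix protein of spermatocytes, Tbpl1 a relative of the TATA-binding protein that spermatids need, and Taf7l an X-linked relative of Taf7, a subunit of the general factor TFIID, which is present from spermatogonia onwards. Rfx2 and Sox30 encode DNA-binding proteins that spermatids need to develop, and Rfx2 acts on genes of the cilium and flagellum. Crem encodes the cAMP-responsive activator of round spermatids, Fhl5 (also called ACT) its LIM-domain coactivator, and Spz1 a testis protein with a helix-loop-helix and a leucine zipper.

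RNA was sequenced in 12 libraries, 3 in each of 4 groups of mice of the outbred ICR strain, with no allele named in the labels. In the IMA10, IMC and Sa groups busulfan, an alkylating agent toxic to dividing spermatogonia, was given once at 3 weeks of age. The IMA10 mice then received gut microbiota for 2 weeks from donors given Aligina Oligosaccharide (the labels' spelling) at 10 mg/kg body weight, the IMC mice received gut microbiota from donors given ddH2O, and the Sa mice received saline. Testes were collected after another 3 weeks. The Con mice had no treatment, and their age is not given. A difference in age therefore cannot be told apart from treatment in any comparison with Con. The design text calls the testis cultured, with no culture described. The labels do not say whether libraries of a group are separate animals, so p-values measure the spread between these libraries, which may be technical.

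1 library stood apart from its group before any result on the regulators is read. Along the leading principal component (88.6% of the variance), IMA10 replicate 3 lay at -81.06, against 98.99 and 127.6 in the other IMA10 libraries, 53.36 to 93.64 in IMC, 24.18 to 70.91 in Sa and -167.4 to -161.2 in Con. Results are therefore given with all 12 libraries and without IMA10 replicate 3. The table has no counts, so the read depth is unknown. Con and busulfan columns are headed with different name prefixes, so batch and lack of treatment cannot be told apart. The tissue label fits its markers: all 10 Sertoli cell markers and all 10 elongating spermatid markers were detected in every group. In whole testis RNA, fewer cells of a type and less RNA per cell cannot be told apart.

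Promoters are shown for 5 regulators: Tcfl5 and Rfx2, the genes reported as A-MYB targets, Sox30 and Fhl5, which lost more, and Taf7l, which did not fall in Sa or IMC. Each runs from 250 bases before to 50 bases after the start of the gene, from RefSeq on GRCm38.p6, which had this window for 7 of the 9 genes. The windows are chr2:180642642-180642941 on the minus strand for Tcfl5, chr17:56830959-56831258 on the minus strand for Rfx2, chr11:45980060-45980359 on the plus strand for Sox30, chr4:25242803-25243102 on the minus strand for Fhl5 and chrX:134476441-134476740 on the minus strand for Taf7l. Capitals mark the MYB core AACNG on either strand.
Tcfl5: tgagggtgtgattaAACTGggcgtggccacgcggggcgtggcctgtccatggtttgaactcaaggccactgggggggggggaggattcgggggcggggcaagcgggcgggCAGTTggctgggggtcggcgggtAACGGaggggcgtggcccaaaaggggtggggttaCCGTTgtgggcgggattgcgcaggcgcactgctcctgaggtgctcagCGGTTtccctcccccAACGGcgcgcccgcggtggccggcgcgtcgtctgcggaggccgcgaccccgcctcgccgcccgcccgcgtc
Rfx2: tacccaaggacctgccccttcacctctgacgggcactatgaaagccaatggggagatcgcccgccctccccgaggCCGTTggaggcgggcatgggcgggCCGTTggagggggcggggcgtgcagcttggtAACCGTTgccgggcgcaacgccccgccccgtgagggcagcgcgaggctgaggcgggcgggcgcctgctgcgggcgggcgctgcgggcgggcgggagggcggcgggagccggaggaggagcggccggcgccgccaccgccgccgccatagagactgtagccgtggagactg
Sox30: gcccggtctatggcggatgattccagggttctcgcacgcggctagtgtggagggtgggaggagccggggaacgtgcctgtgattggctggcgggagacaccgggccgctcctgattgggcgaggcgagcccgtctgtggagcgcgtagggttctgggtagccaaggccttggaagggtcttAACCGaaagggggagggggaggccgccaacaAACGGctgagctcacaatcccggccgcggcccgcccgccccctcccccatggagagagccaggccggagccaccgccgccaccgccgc
Fhl5: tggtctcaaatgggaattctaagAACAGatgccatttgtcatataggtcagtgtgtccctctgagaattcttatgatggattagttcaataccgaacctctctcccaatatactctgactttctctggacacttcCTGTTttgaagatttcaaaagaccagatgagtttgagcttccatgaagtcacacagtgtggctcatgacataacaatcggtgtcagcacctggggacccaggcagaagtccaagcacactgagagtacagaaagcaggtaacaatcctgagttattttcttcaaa
Taf7l: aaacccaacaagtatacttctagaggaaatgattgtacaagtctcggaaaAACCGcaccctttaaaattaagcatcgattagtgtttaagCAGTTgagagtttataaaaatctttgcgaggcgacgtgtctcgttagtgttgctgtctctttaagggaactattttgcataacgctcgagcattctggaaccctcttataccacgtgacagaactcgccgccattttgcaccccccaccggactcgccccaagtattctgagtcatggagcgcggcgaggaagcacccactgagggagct

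The Tcfl5 window held the MYB core at 6 places and the Rfx2 window at 4 places, 2 of them overlapping in the run AACCGTT. Of 27025 RefSeq promoters of the same length, 80.4% held the core at least once, 11.8% at 4 or more places and 1.55% at 6 or more. The core stood at 3 places in the Tbpl1 window, at 2 places each in those of Fhl5, Sox30 and Taf7l and at 1 place in that of Spz1. The RFX half-site GTTNCC was found at 3 places in Tcfl5 and at 2 places in Rfx2, all of which share bases with a MYB core. 45.5% of promoters held that half-site at least once, 12.9% at 2 or more places and 3.02% at 3 or more. The CRE half-site TGACG, the core bound by CREB and CREM proteins, was found in Rfx2 alone among the 7 windows, against 21.0% of promoters, and the full CRE TGACGTCA in none of them, against 1.88%. The SOX core ACAAT was found in Fhl5, Sox30, Spz1 and Taf7l, against 31.6% of promoters. TATAAA was found in Taf7l alone, at 2 places, against 14.2% of promoters. Both strands were searched, and a match describes the letters only.

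Mybl1, the factor at the head of this relay, had overlapping levels in all 4 groups. It was measured at 4.49, 8.07 and 10.16 FPKM in IMA10, at 10.21, 7.63 and 6.86 FPKM in IMC, at 6.97, 10.07 and 6.51 FPKM in Sa and at 6.62, 8.66 and 9.65 FPKM in Con. No group stood above or below the others. The means were 7.57 ± 2.87 FPKM in IMA10, 8.23 ± 1.75 in IMC, 7.85 ± 1.94 in Sa and 8.31 ± 1.55 in Con (SD, n = 3 each). In limma, Mybl1 differed from Con by -0.08 ± 0.29 in Sa (log2 change ± SE of FPKM + 1, adjusted p = 0.804), by -0.01 in IMC (adjusted p = 0.964) and by -0.17 in IMA10 (adjusted p = 0.61). These values depend on the scaling: with median-of-ratios scaling the Sa minus Con change was -0.80 (limma adjusted p = 0.0297) and with quantile normalization -0.76 (limma adjusted p = 0.0178), and both pass as lower.

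Tcfl5 was the most abundant of the 9 regulators in each busulfan group by its mean, and lower there than in Con in all libraries except 1. In IMA10 that rank rests on replicate 3, without which Tcfl5 averaged 13.3 FPKM and Tbpl1 16.9 FPKM. It had 5.40, 21.24 and 212.03 FPKM in IMA10, 49.26, 59.38 and 26.05 FPKM in IMC, 87.63, 61.16 and 46.75 FPKM in Sa and 199.09, 200.06 and 198.30 FPKM in Con. IMA10 replicate 3 was above every Con library, and the other 8 busulfan libraries were below all of them. The change in Sa minus Con was -1.64 ± 0.98 and did not pass (limma adjusted p = 0.147), and without IMA10 replicate 3 the same difference passed as lower with an SE of 0.44 (limma adjusted p = 0.00556). Tcfl5 overlaps the collagen gene Col9a3 in RefSeq, and the strand used in counting is not given. Col9a3 itself stayed between 0.92 and 6.55 FPKM in all 12 libraries.

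Tbpl1 had 13.11, 20.59 and 139.77 FPKM in IMA10, 42.04, 47.45 and 21.38 FPKM in IMC, 51.43, 42.38 and 32.46 FPKM in Sa and 109.72, 114.45 and 112.30 FPKM in Con. Here too IMA10 replicate 3 exceeded Con, while the other 8 busulfan libraries lay below it. Sa minus Con was -1.42 ± 0.70 (limma adjusted p = 0.0884), and it passed as lower without IMA10 replicate 3 (SE 0.29, limma adjusted p = 0.000978). Tbpl1 overlaps Slc2a12, a sugar transporter gene with 6.62 to 9.17 FPKM in Sa and 0.68 to 0.76 FPKM in Con. Its share in the Tbpl1 values was not tested.

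Taf7l was the regulator with the highest share of its Con level in Sa. It had 3.45, 14.89 and 21.58 FPKM in IMA10, 20.97, 31.87 and 14.12 FPKM in IMC, 38.58, 30.83 and 22.93 FPKM in Sa and 15.45, 18.84 and 18.41 FPKM in Con. All 3 Sa libraries lay above all Con libraries, whereas IMC and IMA10 overlapped Con on both sides. Sa minus Con was 0.75 ± 0.52 and did not pass (limma adjusted p = 0.212), and its sign turned with median-of-ratios scaling, to -0.02. It passed as higher in a fit of the Sa and Con libraries alone (limma adjusted p = 0.00653), where 8664 of 15472 genes were called higher. Taf7, the X-linked gene's autosomal relative, a comparison chosen after the values were seen, rose to 8.09 FPKM in Sa, against 3.92 FPKM in Con (log2 change 0.89 ± 0.19, limma adjusted p = 0.00188). With median-of-ratios scaling that rise was 0.21 and did not pass (limma adjusted p = 0.262).

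Rfx2 fell in IMC and in IMA10. It had 4.09, 13.23 and 159.74 FPKM in IMA10, 33.62, 41.81 and 16.88 FPKM in IMC, 57.63, 38.52 and 31.16 FPKM in Sa and 173.83, 162.43 and 162.67 FPKM in Con. No busulfan library reached the Con range, although IMA10 replicate 3 came within a few FPKM of it. Sa minus Con was -1.99 ± 0.98 and did not pass with all libraries (limma adjusted p = 0.0884), but passed as lower without IMA10 replicate 3 (SE 0.41, limma adjusted p = 0.0011). Crem fell in all 3 busulfan groups. It had 3.87, 8.02 and 59.58 FPKM in IMA10, 18.04, 18.50 and 9.66 FPKM in IMC, 21.71, 16.49 and 13.94 FPKM in Sa and 70.96, 76.59 and 70.55 FPKM in Con. All 9 busulfan libraries were below all 3 Con libraries. The fall in Sa minus Con was -2.02 ± 0.73 (limma adjusted p = 0.0291). The gene level pools the activator forms of Crem with its repressor forms, among them the one known as ICER.

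Sox30, Fhl5 and Spz1 fell most. Sox30 had 1.32, 4.93 and 52.04 FPKM in IMA10, 10.35, 12.94 and 6.01 FPKM in IMC, 22.16, 14.04 and 11.15 FPKM in Sa and 99.17, 100.22 and 107.99 FPKM in Con. Fhl5 had 1.31, 2.42 and 31.86 FPKM in IMA10, 6.14, 4.92 and 3.55 FPKM in IMC, 15.91, 9.64 and 5.82 FPKM in Sa and 122.69, 126.85 and 150.23 FPKM in Con. Spz1 had 2.16, 7.38 and 130.56 FPKM in IMA10, 25.93, 16.49 and 10.27 FPKM in IMC, 50.94, 39.92 and 14.89 FPKM in Sa and 801.12, 832.95 and 909.87 FPKM in Con. For these 3 genes even IMA10 replicate 3 lay well below the lowest Con library, and no busulfan group overlapped Con. The log2 change in Sa minus Con was -2.68 ± 0.89 for Sox30 (limma adjusted p = 0.0201), -3.64 ± 0.81 for Fhl5 (limma adjusted p = 0.00246) and -4.71 ± 1.09 for Spz1 (limma adjusted p = 0.0032). Spz1 was the most abundant regulator in Con, at 848 ± 55.9 FPKM (SD, n = 3), and averaged 46.7 ± 72.7 FPKM in IMA10 (4.77 FPKM without replicate 3), 17.6 ± 7.88 in IMC and 35.3 ± 18.5 in Sa.

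**Figure D1:**
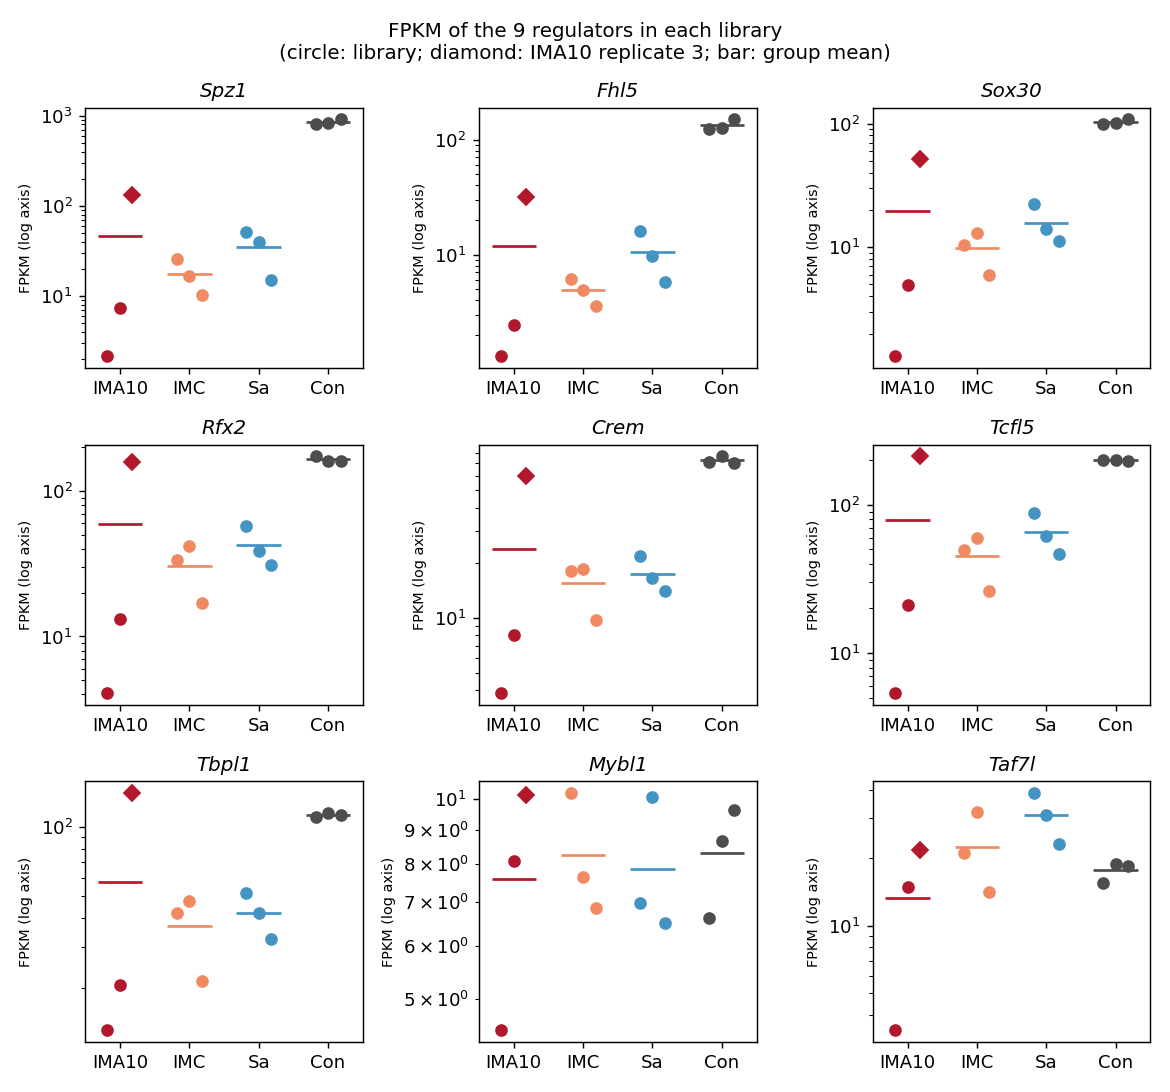
FPKM (log axis, its range set for each gene) of the 9 regulators in the 12 libraries, by group; circles are libraries, the diamond is IMA10 replicate 3 and the bar is the group mean of 3 libraries. Spz1, Fhl5 and Sox30 are below Con in all 9 busulfan libraries, Mybl1 overlaps between all groups, and Taf7l is above Con in all 3 Sa libraries as deposited, an order of the means that turns with median-of-ratios scaling (log2 change -0.02).

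Sa against Con shows these regulators after busulfan followed by saline. With all 12 libraries, 4 of the 9 fell, namely Crem, Sox30, Fhl5 and Spz1, and 0 rose; over all 15472 genes tested 19.2% were called lower and 52.0% higher (limma, adjusted p under 0.05). When IMA10 replicate 3 was left out, Rfx2, Tcfl5 and Tbpl1 were also called, so 7 fell and 0 rose, where 30.0% of all genes were called lower and 55.5% higher. The median change of the 9 regulators was -1.99, against 0.60 for all genes tested. With median-of-ratios scaling the median gene was at -0.02, 6060 genes were called lower and 5831 higher, against 2963 lower and 8052 higher as deposited, and 8 regulators fell, all except Taf7l. The ranges of Sa and Con did not overlap for 8 regulators, 7 lower and Taf7l higher, against 31.3% of genes lower and 56.9% higher. The count was 2 (Fhl5 and Spz1) without Sa replicate 2, Sa replicate 3 or Con replicate 3. All genes called lower were then 2217, 2018 and 2195 of the 15472, in that order. Without IMA10 replicate 1 it was 7, 6 lower and Taf7l higher, where 3694 genes were called lower and 8187 higher. In a fit of only the Sa and Con libraries, 8 were called, 7 lower and Taf7l higher, where 4765 genes were called lower and 8664 higher.

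IMC against Con covers busulfan followed by microbiota of water-fed donors. There 5 regulators fell and 0 rose, the 4 above and Rfx2, while 23.3% of all genes were called lower and 50.8% higher. The changes were -5.60 for Spz1 (limma adjusted p = 0.00115), -4.53 for Fhl5 (0.000678), -3.32 for Sox30 (0.0067), -2.49 for Rfx2 (0.0403) and -2.22 for Crem (0.0191), with the same SE for each gene as in Sa minus Con. Tcfl5 at -2.20 (limma adjusted p = 0.0615) and Tbpl1 at -1.65 (limma adjusted p = 0.0519) did not pass with all libraries. Both were called lower without IMA10 replicate 3, which made 7 lower and 0 higher, where 32.3% of all genes were called lower and 53.5% higher. The regulators' median was -2.22, against 0.52 for all genes. The 2 groups did not overlap for 7 regulators, all lower, against 33.2% of genes lower and 55.1% higher. Median-of-ratios scaling called 6276 genes lower and 6027 higher in this comparison, against 3603 lower and 7862 higher as deposited, and 7 regulators lower. Without IMC replicate 3 the count was 3, namely Fhl5, Sox30 and Spz1, where 2246 genes were called lower and 7442 higher.

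IMA10 against Con covers busulfan followed by microbiota of oligosaccharide-fed donors. With all libraries 7 regulators fell and 0 rose, all except Mybl1 and Taf7l, while 23.9% of all genes were called lower and 47.7% higher. Spz1 changed by -5.81 (limma adjusted p = 0.00141), Fhl5 by -4.39 (0.00128), Sox30 by -3.52 (0.00578), Rfx2 by -2.88 (0.0235), Tcfl5 by -2.68 (0.0311), Crem by -2.41 (0.0142) and Tbpl1 by -1.69 (0.0491). 1 library weighed heavily on these values. Without IMA10 replicate 3 the changes were -7.36 for Spz1, -5.57 for Fhl5, -4.80 for Sox30, -4.30 for Rfx2, -4.07 for Tcfl5, -3.47 for Crem and -2.70 for Tbpl1, and Taf7l also passed as lower at -1.14 ± 0.48 (limma adjusted p = 0.0477). That made 8 lower and 0 higher, where 35.1% of all genes were called lower and 51.5% higher. The count was 3 (Fhl5, Sox30 and Spz1) without IMA10 replicate 1 or IMA10 replicate 2, where 2209 and 2177 genes were called lower. It was 4 (those and Crem) without any 1 Con library, where 2604, 2543 and 2507 genes were called lower without Con replicates 1, 2 and 3. The 2 groups did not overlap for 5 regulators, all lower, against 18.1% of genes lower and 49.3% higher. The regulators' median was -2.68, against 0.41 for all genes, and median-of-ratios scaling called 5736 genes lower and 5714 higher, against 3694 lower and 7383 higher as deposited. The 3 comparisons with Con share the same Con libraries.

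**Figure D2:**
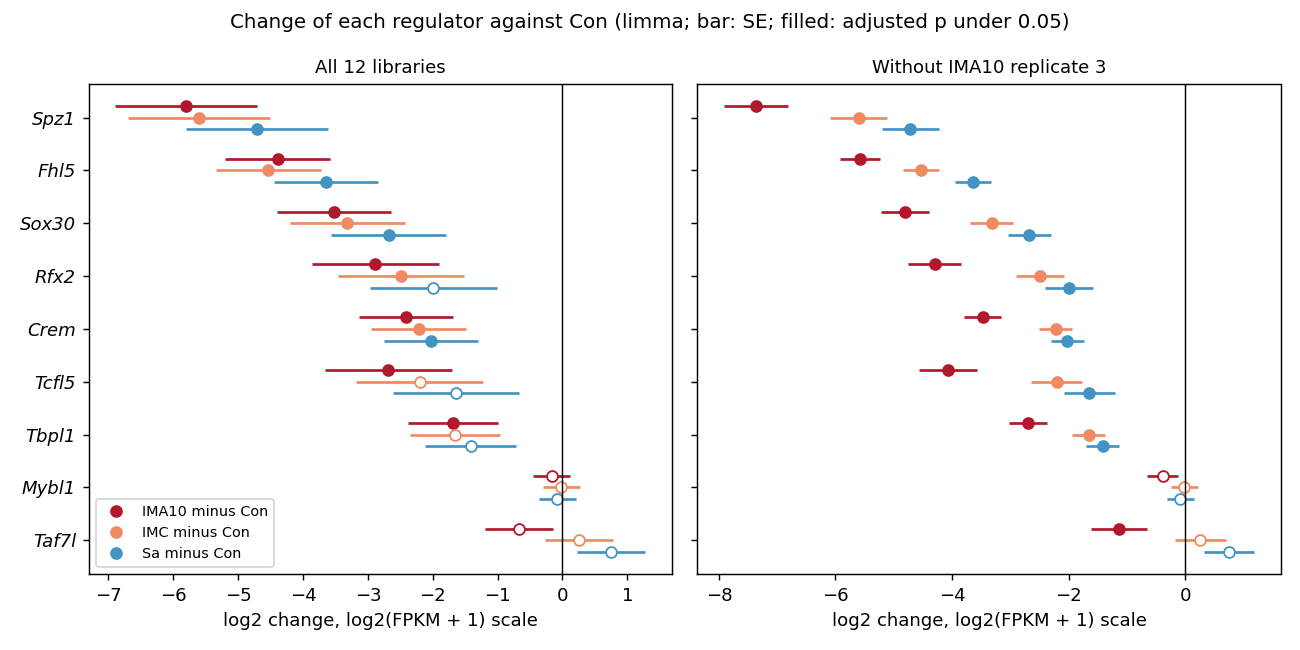
Change against Con of each regulator on the log2(FPKM + 1) scale, with all 12 libraries (left) and without IMA10 replicate 3 (right); points are limma estimates, bars are 1 SE and filled points have an adjusted p under 0.05. The regulators run from Spz1 at the top (-5.81 in IMA10, -5.60 in IMC and -4.71 in Sa, all libraries) to Mybl1 and Taf7l at the bottom. Mybl1 has no filled point in either panel. Taf7l is called lower in IMA10 without replicate 3 (-1.14), and its sign in Sa and IMC turns with median-of-ratios scaling.

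Among the 3 busulfan groups, which share the drug and differ in what followed it, no regulator passed with all libraries. For IMC minus Sa, 0 of 9 were called and 0.0% of all genes in either direction by limma, with 134 genes at an unadjusted p under 0.05. All 9 changes except that of Mybl1 (0.07) were below 0, between -0.89 for Spz1 and Fhl5 and -0.19 for Crem, and all 9 pairs of ranges overlapped, where 6.02% of genes did not overlap and were lower and 3.32% higher. For IMA10 minus IMC, 0 of 9 and 0.0% of all genes were called in either direction, with 328 genes at an unadjusted p under 0.05, and the changes lay between -0.92 for Taf7l and 0.14 for Fhl5. All 9 pairs of ranges overlapped there too, where 2.88% of genes did not overlap and were lower and 0.478% higher. Without IMA10 replicate 3 this comparison called no regulator, 0.0129% of all genes lower and 0.0% higher.

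IMA10 minus Sa depended on IMA10 replicate 3. With all libraries 0 of 9 regulators and 0.0% of all genes were called in either direction, with 928 genes at an unadjusted p under 0.05. Taf7l was the only regulator of the 9 whose ranges did not overlap, at 3.45 to 21.58 FPKM in IMA10, against 22.93 to 38.58 FPKM in Sa (log2 change -1.41 ± 0.52, limma adjusted p = 0.706), where 7.17% of genes did not overlap and were lower and 0.633% higher. Without IMA10 replicate 3, 8 of 9 regulators were called lower and 0 higher, where 24.5% of all genes were called lower and 7.34% higher. The changes were then -2.65 ± 0.55 for Spz1, -2.43 ± 0.49 for Tcfl5, -2.31 ± 0.46 for Rfx2, -2.12 ± 0.41 for Sox30, -1.93 ± 0.34 for Fhl5 and -1.45 ± 0.31 for Crem, each with a limma adjusted p of 0.0136. Taf7l was at -1.89 ± 0.48 (limma adjusted p = 0.0194) and Tbpl1 at -1.28 ± 0.32 (limma adjusted p = 0.0181), and Mybl1 at -0.31 did not pass (limma adjusted p = 0.395). Only 2 IMA10 libraries remain in that fit. IMA10 replicates 1 and 2 were below every Sa library for 8 regulators, all except Mybl1, and replicate 3 was above every Sa library for 7 of these, all except Taf7l. The shares of all genes with these orders were not computed, so the counts cannot be read as particular to the regulators.

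The regulators lost unequal shares of their Con level, and in nearly the same order in every busulfan library. As a percent of the Con mean, Spz1 kept 5.51% in IMA10, 2.07% in IMC and 4.16% in Sa, and Fhl5 kept 8.9%, 3.65% and 7.85% in the same groups. Sox30 kept 19.0% in IMA10, 9.53% in IMC and 15.4% in Sa, and Tbpl1 51.6%, 33.0% and 37.5%. The IMA10 means rest on replicate 3: without it Spz1 kept 0.563% in IMA10, Fhl5 1.40%, Sox30 3.05% and Tbpl1 15.0%, each lower than the means of IMC and Sa. Rfx2, Crem and Tcfl5 lay between these. Spz1 kept the lowest share, Fhl5 the second and Sox30 the third lowest in 9 of 9 busulfan libraries. Rfx2 was in the fourth place in 6 libraries and in the fifth in 3, Crem held the fourth, the fifth or the sixth place, and Tcfl5 the fifth or the sixth. Tbpl1 was the seventh in 8 of 9 libraries, and Mybl1 and Taf7l took the 2 highest places in those. The 3 lowest places held in libraries as far apart as IMA10 replicate 1, where Spz1 kept 0.255%, and IMA10 replicate 3, where it kept 15.4%. The places above them changed in part. Tbpl1 kept 11.7% in IMA10 replicate 1, less than Mybl1 and Taf7l, and 125%, the highest share of the 9 regulators, in IMA10 replicate 3.

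**Figure D3:**
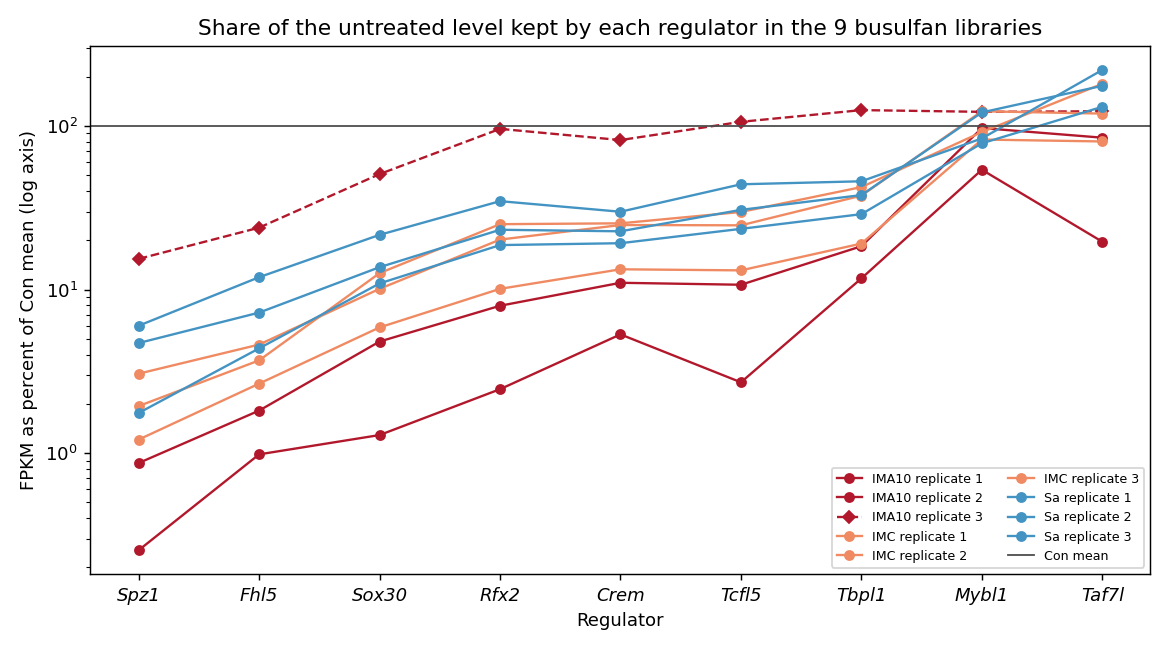
Percent of the Con mean FPKM (log axis) kept by each regulator in each of the 9 busulfan libraries; each line is a library, the dashed line is IMA10 replicate 3 and the horizontal line is the Con mean. The lines climb from Spz1 (0.255% to 15.4%) through Fhl5 and Sox30 to Tbpl1 (11.7% to 125%) and are highest at Mybl1 or Taf7l in 8 of 9 libraries.

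That the regulators changed by unequal amounts was tested on ratios within a library, which no scaling of whole libraries can move apart from the added 1 FPKM. For each of the 36 pairs, log2 ratios in the 9 busulfan libraries were set against those in the 3 Con libraries by an exact two-sided permutation test, with Benjamini-Hochberg adjustment over the 36. The ratio differed for 33 pairs, 30 of them at an exact permutation p = 0.00909, the smallest that 220 arrangements can give (adjusted p = 0.0109). The share of pairs of other genes that differ in this way was not computed. The count therefore cannot be read as particular to these regulators. Fhl5 and its partner Crem did not fall alike: the log2 ratio of Crem to Fhl5 was 1.11 ± 0.39 in busulfan libraries (SD, n = 9), against -0.86 ± 0.19 in Con libraries (SD, n = 3), higher in 9 of 9 (exact permutation p = 0.00909). Spz1 fell more than Fhl5, with a log2 ratio of Fhl5 to Spz1 of -1.48 ± 0.49 in busulfan libraries, against -2.66 ± 0.06 in Con libraries (exact permutation p = 0.00909). The log2 ratio of Rfx2 to Tcfl5 was -0.54 ± 0.11 in busulfan libraries, against -0.26 ± 0.06 in Con libraries, a small difference seen in 9 of 9 libraries (exact permutation p = 0.00909).

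The 3 pairs that did not pass were Crem with Rfx2, Crem with Tcfl5 and Mybl1 with Taf7l. Their log2 ratios differed between busulfan and Con libraries by 0.24 (exact permutation p = 0.391, adjusted 0.414), -0.04 (p = 0.7, adjusted 0.7) and -0.20 (p = 0.682, adjusted 0.7). The 9 busulfan libraries come from 3 groups, so they are not replicates of 1 condition.

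The shares were then set beside marker lists of the stages at which the genes are used. In Sa replicates 1, 2 and 3, the median marker of undifferentiated spermatogonia was at 369%, 306% and 297% of Con, and that of differentiating spermatogonia at 460%, 277% and 223%. The early meiotic prophase median was at 125%, 127% and 57.8%, the pachytene median at 38.7%, 25.9% and 21.2%, the round spermatid median at 14.6%, 9.15% and 5.88% and the elongating spermatid median at 5.22%, 3.98% and 0.457%. From early meiotic prophase on, each median was lower than that of the stage before it in every Sa library. Of the 6 markers of undifferentiated spermatogonia, 3 rose and 1 fell in Sa minus Con (median log2 change 0.64, against 0.60 for all genes), and 3 rose and 3 fell with median-of-ratios scaling. Of the 5 markers of differentiating spermatogonia, 4 rose and 0 fell (median 1.29), and 1 rose and 1 fell with that scaling. Tcfl5 kept 44.0%, 30.7% and 23.5% in these libraries and Rfx2 34.7%, 23.2% and 18.7%, close to the pachytene median, and Sox30 kept 21.6%, 13.7% and 10.9%, between the pachytene and round spermatid medians. Fhl5 kept 11.9%, 7.23% and 4.37%, slightly below the round spermatid median, and Spz1 kept 6.01%, 4.71% and 1.76%, between the round and elongating spermatid medians. Crem, known as an activator of round spermatids, kept 29.9%, 22.7% and 19.2%, next to the pachytene median and above the round spermatid median in all 3 libraries. Mybl1, known for its action at pachytene, kept 83.9%, 121% and 78.3%, above the pachytene median in all 3 libraries. So were Tbpl1, which spermatids need, at 45.9%, 37.8% and 28.9%, and Taf7l, at 220%, 176% and 131%.

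In Sa minus Con, 1 of 7 pachytene markers fell with all libraries and 6 of 7 without IMA10 replicate 3 (list median -1.82). All 9 round spermatid markers (median -3.38) and all 10 elongating spermatid markers (median -5.43) fell in both fits and under both other scalings, against an all-gene median of 0.60. IMA10 replicate 3 had 98.4% of Con for the pachytene median, 42.7% for round spermatids and 9.17% for elongating spermatids, while IMA10 replicates 1 and 2 had 2.04% and 8.18%, 1.07% and 2.55%, and 0.0856% and 0.186%.

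**Figure D4:**
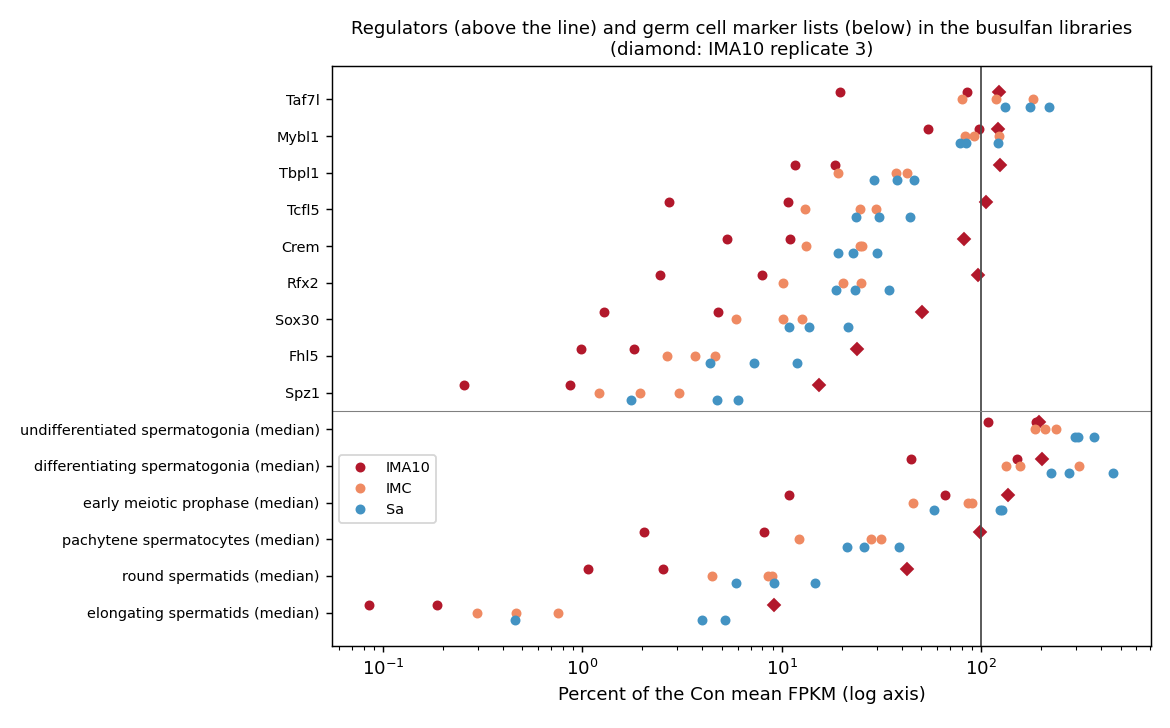
Percent of the Con mean FPKM (log axis) of the 9 regulators (above the line) and of the median marker of 6 germ cell stages (below) in each of the 9 busulfan libraries; diamonds are IMA10 replicate 3. Spz1 lies between the round and elongating spermatid medians in the Sa libraries, Rfx2, Crem and Tcfl5 lie near the pachytene median, and Mybl1 and Taf7l lie to their right.

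Markers of Sertoli cells, Leydig cells, peritubular myoid cells, macrophages and endothelial cells moved the other way. Their summed FPKM for the 10 Sertoli markers was 2350 to 13920 in IMA10, 9215 to 10970 in IMC, 7271 to 8976 in Sa and 420 to 500.7 in Con, and IMA10 replicate 3 was the lowest busulfan library. The 7 Leydig markers summed to 1867 to 7057 FPKM in IMA10, 4255 to 13620 in IMC, 4374 to 8850 in Sa and 609.8 to 655.7 in Con. All markers of Sertoli cells, Leydig cells, peritubular myoid cells, macrophages and endothelial cells rose in Sa minus Con (with quantile normalization, 3 of the 5 endothelial markers), and no marker of these lists was at 0 in every library of a group. Adipocyte markers were split: of 3, 2 rose and 1 fell in Sa minus Con, and 1 rose and 1 fell with quantile normalization. The sum of these adipocyte markers was 6.19 to 8.55 FPKM in Sa, against 12.1 to 13.23 FPKM in Con. Of the epididymis markers 2 of 3 are in the table, with a sum of at most 0.67 FPKM in any library. The share of these cell types in the values of the regulators was not tested.

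All 7 tested genes of those known to depend on CREM in mouse testis fell in Sa minus Con (median -5.39, beside -2.02 for Crem, a difference that was not tested), in IMC minus Con (-7.79) and in IMA10 minus Con (-7.53), against all-gene medians of 0.60, 0.52 and 0.41. All 7 fell under both other scalings too. The chromatin genes Prm1, Prm2, Tnp1 and Tnp2 and the sperm tail and midpiece genes Odf1 and Smcp are in the list of elongating spermatid markers too. Ace, the angiotensin-converting enzyme with a testis form, had the smallest p: it fell to 47.29, 42.98 and 37.69 FPKM in Sa, against 271.09, 252.4 and 261.55 FPKM in Con (log2 change -2.59 ± 0.19, limma adjusted p = 3.9e-05). Odf1 fell by 4.56 ± 1.05 (limma adjusted p = 0.00304) and Smcp by 5.09 ± 1.20 (limma adjusted p = 0.00346) on the log2 scale. Prm2, a protamine and the most abundant gene of the list, had 5.72, 7.84 and 817.02 FPKM in IMA10, 39.81, 37.88 and 14.18 FPKM in IMC, 587.33, 417.58 and 40.07 FPKM in Sa and 12998.17, 12778.92 and 12824.16 FPKM in Con. All 9 busulfan libraries were below Con, and Sa replicate 3 was far below the other Sa libraries. In IMA10 minus Sa, all 7 were called lower without IMA10 replicate 3 (median -4.11), where 24.5% of all genes were called lower and 7.34% higher. With all libraries 0 of the 7 were called.

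Genes known to depend on A-MYB in mouse testis did not pass in Sa. Of the 8, 0 were called in Sa minus Con (median -1.09) and 0 in IMC minus Con (median -1.82), and 3 fell in IMA10 minus Con, Mael, Tdrd6 and Ccna1. Over all genes, 19.2% were called lower in Sa minus Con, 23.3% in IMC minus Con and 23.9% in IMA10 minus Con. Without IMA10 replicate 3, 4 were called lower in Sa minus Con and all 8 in each of IMC minus Con and IMA10 minus Con. The shares of all genes called lower were then 30.0%, 32.3% and 35.1%. With median-of-ratios scaling, 4 fell in Sa minus Con and 8 in each of the other comparisons with Con. Of 15472 genes tested, that scaling called 6060, 6276 and 5736 lower in the same order. Mael, a factor of the piRNA pathway and the most abundant gene of the list, had 25.58, 114.16 and 963.12 FPKM in IMA10, 259.88, 301.83 and 121.42 FPKM in IMC, 424.41, 281.61 and 221.9 FPKM in Sa and 970.6, 1025.17 and 1005.65 FPKM in Con. No busulfan library reached the Con range. Sa minus Con was -1.74 ± 1.00 for Mael (limma adjusted p = 0.135), -2.0 ± 1.10 for Tdrd6 (limma adjusted p = 0.121) and -1.82 ± 1.05 for the meiotic cyclin Ccna1 (limma adjusted p = 0.136). Ccna1 and Piwil1 of this list are pachytene markers too. Mybl1 itself differed by -0.08 in Sa minus Con as deposited, but it passed as lower with median-of-ratios scaling and with quantile normalization.

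Partners of the regulators were called in both directions. Of 8 partners and coregulators, 3 fell and 2 rose in Sa minus Con (median -1.35), where 19.2% of all genes were called lower and 52.0% higher (median 0.60), and 5 fell and 1 rose in each of IMC minus Con and IMA10 minus Con. Camk4, a kinase that can phosphorylate CREB proteins, fell to 4.68, 3.91 and 1.52 FPKM in Sa, against 28.25, 30.51 and 31.18 FPKM in Con (log2 change -2.91 ± 0.62, limma adjusted p = 0.00202). Kif17, the kinesin reported to carry ACT in spermatids, a gene named after its values were seen, averaged 15.7 FPKM in IMA10 (2.34 FPKM without replicate 3), 7.57 in IMC, 11.6 in Sa and 123 in Con, and fell in Sa minus Con by 3.37 ± 0.86 on the log2 scale (limma adjusted p = 0.0053). The third that fell in Sa, named after its values were seen, was Gtf2a2, a subunit of TFIIA, by 0.91 ± 0.33 (limma adjusted p = 0.031, and 0.119 with quantile normalization). Gtf2a1l, the germ cell form of a subunit of TFIIA, averaged 73.2 FPKM in IMA10 (9.61 FPKM without replicate 3), 42.0 in IMC, 49.3 in Sa and 228 in Con, and did not pass in Sa with all libraries (log2 change -2.24 ± 1.05, limma adjusted p = 0.0777). Taf4b, a TFIID subunit of germ cells, rose to 11.24, 11.46 and 8.71 FPKM in Sa, against 2.99, 3.45 and 3.82 FPKM in Con (log2 change 1.37 ± 0.23, limma adjusted p = 0.000584). The coactivator Crebbp rose by 0.71 ± 0.14 (limma adjusted p = 0.00111), to 7.60 FPKM in Sa, against 4.27 FPKM in Con. The rise of Taf4b held with median-of-ratios scaling (0.70, limma adjusted p = 0.00953), and that of Crebbp did not (0.02, limma adjusted p = 0.874, and -0.03 with quantile normalization). That scaling gave 5 partners lower and 1 higher.

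Relatives of the regulators were called in both directions as well. Of 19 tested genes of the CREB, FHL, RFX, MYB, TBP, TAF7 and SOX families, 8 rose and 6 fell in Sa minus Con (median -0.28), 8 rose and 7 fell in IMC minus Con, and 8 rose and 8 fell in IMA10 minus Con. Over all genes, 52.0% were called higher and 19.2% lower in Sa minus Con, 50.8% and 23.3% in IMC minus Con and 47.7% and 23.9% in IMA10 minus Con. With median-of-ratios scaling 6 rose and 10 fell in Sa minus Con. Sox9, the Sertoli cell factor, rose to 33.3, 38.02 and 43.72 FPKM in Sa, against 2.65, 2.75 and 2.17 FPKM in Con (log2 change 3.48 ± 0.48, limma adjusted p = 0.000359). Among the FHL genes, Fhl1 rose by 3.14 ± 0.48 (limma adjusted p = 0.000395) and Fhl3 by 1.83 ± 0.20 (limma adjusted p = 0.000233), beside the fall of Fhl5. Fhl4, the most abundant relative, averaged 287 FPKM in IMA10 (37.7 FPKM without replicate 3), 150 in IMC, 183 in Sa and 1064 in Con, and did not pass in Sa minus Con with all libraries (log2 change -2.58 ± 1.08, limma adjusted p = 0.0529). The following relatives were chosen after their values were seen, as counterparts of the regulators. Creb1, the widely expressed relative of Crem, rose by 1.25 ± 0.27 (limma adjusted p = 0.00204, and 0.0766 with quantile normalization), and Creb3l4, which is made in spermatids, fell by 3.38 ± 0.90 (limma adjusted p = 0.00667) on the log2 scale. Rfx1 fell by 1.94 ± 0.48 (limma adjusted p = 0.00462) and Rfx3 by 1.47 ± 0.27 (limma adjusted p = 0.000891). Tbp, the relative of Tbpl1, averaged 45.7 FPKM in IMA10 (19.7 FPKM without replicate 3), 35.7 in IMC, 42.8 in Sa and 75.9 in Con (Sa minus Con -0.83 ± 0.53, limma adjusted p = 0.172), and Mybl2 differed by 0.21 (limma adjusted p = 0.569). Scaling changes both: with median-of-ratios scaling Tbp fell by 1.62 (limma adjusted p = 0.0236) and Mybl2 was at -0.44 (limma adjusted p = 0.244).

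Regulators of other germ cell stages were set beside the 9. Of 18 other germ cell transcription regulators, 8 rose and 3 fell in Sa minus Con (median 0.14), near the 52.0% higher and 19.2% lower over all genes, 5 rose and 3 fell in IMC minus Con, and 3 rose and 8 fell in IMA10 minus Con. With IMA10 replicate 3 left out, 8 rose and 9 fell in Sa minus Con, and with median-of-ratios scaling of all libraries 4 rose and 8 fell. Zbtb16 and Foxo1, factors of undifferentiated spermatogonia, rose by 1.42 ± 0.16 (limma adjusted p = 0.000275) and 2.23 ± 0.27 (limma adjusted p = 0.00032). Dmrt1, a factor of spermatogonia and Sertoli cells, rose to 64.45, 54.11 and 52.9 FPKM in Sa, against 9.36, 9.76 and 8.52 FPKM in Con (log2 change 2.51 ± 0.32, limma adjusted p = 0.00035). Stra8 and Meiosin, the partners that start meiosis, were named after their values were seen: they rose by 1.76 ± 0.50 (limma adjusted p = 0.00962) and 1.48 ± 0.50 (limma adjusted p = 0.0228). With median-of-ratios scaling neither passed, at 1.01 (limma adjusted p = 0.0841) and 0.77 (limma adjusted p = 0.187). Dmrtb1, the most abundant of this list, had 128.43, 89.37 and 68.51 FPKM in Sa, against 415.04, 412.61 and 430.0 FPKM in Con, and did not pass (log2 change -2.17 ± 1.10, limma adjusted p = 0.0975). In IMA10 minus Sa, 15 of the 18 were called lower and 0 higher without IMA10 replicate 3, and 0 with all libraries. Over all genes 24.5% were called lower and 7.34% higher without that library, and 0.0% with it.

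Over the 12 libraries, each regulator had genes that followed it closely, ranked by Pearson's r of log2(FPKM + 1). The points are libraries that share the large difference between Con and busulfan, so r describes the likeness and carries no test. For Tcfl5 the closest were Mroh4 (r = 0.9991), Pdha2 (0.999), the germ cell form of a pyruvate dehydrogenase subunit, and Mael (0.9985). For Rfx2 they were Acot7 (0.9997), Agbl5 (0.9992) and Ccdc92 (0.9991), for Sox30 Cdca2 (0.9987), Dgat2 (0.998) and Erich2 (0.9976), and for Tbpl1 Gpr160 (0.999), Atp8b5 (0.9981) and Haus1 (0.998). For Crem they were Plcd4 (0.9989), Cmtm1 (0.9987) and Letm2 (0.9987), and for Fhl5 H2bl1 (0.9988), Fam166a (0.9988) and Atp1a4 (0.9987), a sodium pump subunit of sperm. For Spz1 they were Galntl5, Ccdc54 and Ms4a5 (0.9989 each). Mybl1 had looser companions, Aftph (0.9715), Acvr2a (0.9556) and Eif2s2 (0.9527), and Taf7l had Fmr1nb (0.9794), the proliferation marker Mki67 (0.9762) and the Y-linked Uba1y (0.9642).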

How the data were processed

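RNA sequencing of testis was deposited as 1 table with 12 library columns. The values are FPKM made by the authors, per the file headers. For the aligner, counting program, strand setting, genome build and annotation, nothing is stated (not given in the sources used here). Without counts in the table, depth is unknown and counting intervals are left out. A loss of very abundant transcripts raises the FPKM of all others. Sums of FPKM were 476127 to 519355 in busulfan libraries and 569055 to 576093 in Con.

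Groups and replicate numbers came from the sample labels. Symbols were attached through NCBI Gene IDs in a RefSeq table (GRCm38.p6), which matched 20141 of 20288 IDs, and 1 list gene, Meiosin, was found by a synonym. Values were tested as log2(FPKM + 1), for the 15472 genes that reached 1 FPKM in 3 or more libraries, in limma 3.58.1 (R 4.3.3). The fit had 1 mean per group and a variance trend, and Benjamini-Hochberg adjustment over all genes. On this log2(value + pseudocount) scale, fold changes of low genes are understated. An adjusted p under 0.05 counts as changed. SE are limma's moderated standard errors. Ratios of 2 regulators were compared by exact permutation.

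The members and gene lists were chosen with earlier results of these data known. From each list the text names the 3 genes with the smallest p in Sa minus Con and the most abundant gene, and marks any other as chosen after its values were seen. The genes most alike are the 3 with the highest r. Promoter motifs were chosen with the values and sequences in view. The procedure was tested on simulated data over 15472 genes for Sa minus Con. A log2 change of -1 was found in 28% of changed genes with the spread of all libraries and in 64% with the spread without IMA10 replicate 3, and a change of -2 in 66% and 95%. Only 100 genes were changed by each amount, and noise was drawn independently for each gene. In the data 11015 of the 15472 genes were called, and libraries deviated over many genes at once. These rates are therefore not those of the real fit. Alternatives were median-of-ratios scaling, quantile normalization, a pseudocount of 0.1, no filter, a filter of 5 FPKM, a fit of the compared pair of groups alone, a replicate block and leaving out each library. All columns of the table were used.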

Additional observations from a re-analysis of the deposited data

How the results depend on the processing

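Values of single regulators were compared across settings. Apart from leaving out 1 library, 345 values kept their direction and side of the threshold, 14 passed newly, 10 no longer passed and 9 turned sign. With 1 library left out at a time, 549 stayed the same, 19 passed newly, 41 no longer passed and 39 turned sign. The counts of regulators called moved most. In Sa minus Con, 4 became 8 with median-of-ratios scaling and 8 in a fit of only the 2 groups compared, and in IMA10 minus Con 7 became 3 in that fit. The fit of IMA10 and Con alone called 1834 of all genes lower and 5862 higher, against 3694 and 7383 in the fit of all groups. The count over all genes in IMC minus Sa, 0, became 1 with a pseudocount of 0.1 and 1 with no filter. In IMA10 minus Sa, 0 became 1 and 2 under the same settings. The cause was not tested. Leaving out 1 library at a time gave 2 to 7 regulators in Sa minus Con, 3 to 7 in IMC minus Con, 3 to 8 in IMA10 minus Con and 0 to 8 in IMA10 minus Sa, where all genes called ranged from 0 to 4931. In the comparisons with Con, all genes called ranged from 9680 to 13231 for Sa, 9688 to 13272 for IMC and 8496 to 13400 for IMA10. All genes called in IMA10 minus IMC ranged from 0 to 2. Pairs of regulators with unequal change ranged from 30 to 33, and the smallest exact p without a Con library was 0.0364.

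Signs turned for values near 0 and for larger ones. When IMA10 replicate 1 was left out, the regulators' median in IMA10 minus Sa went from -0.85 to 0.13. Taf7l turned with median-of-ratios scaling to -0.0198 in Sa minus Con and -0.43 in IMC minus Con (-0.037 with quantile normalization). Mybl1 turned in IMA10 minus Sa to 0.13 with median-of-ratios scaling and 0.26 with quantile normalization, and in IMA10 minus IMC to 0.0914 with quantile normalization. In IMA10 minus IMC, Fhl5 turned to -0.0033 with a pseudocount of 0.1, Sox30 to 0.0435 with quantile normalization and Tbpl1 to 0.12 with median-of-ratios scaling. Leaving out 1 library at a time, log2 changes of Mybl1 ranged from -0.25 to 0.0267 in Sa minus Con, -0.16 to 0.0932 in IMC minus Con, -0.39 to 0.13 in IMA10 minus Con, -0.0821 to 0.24 in IMC minus Sa, -0.31 to 0.21 in IMA10 minus Sa and -0.37 to 0.14 in IMA10 minus IMC. Those of Taf7l ranged from -0.0218 to 0.54 in IMC minus Con and -1.14 to 0.0338 in IMA10 minus Con. In IMC minus Sa, Crem ranged from -0.35 to 0.0899 and Tbpl1 from -0.45 to 0.11. In IMA10 minus Sa, the ranges were -1.45 to 0.37 for Crem, -2.31 to 0.18 for Rfx2, -2.43 to 0.10 for Tcfl5, -2.12 to 0.13 for Sox30, -1.28 to 0.38 for Tbpl1 and -2.65 to 0.0388 for Spz1. In IMA10 minus IMC, they were -1.25 to 0.56 for Crem, -1.04 to 0.88 for Fhl5, -1.81 to 0.68 for Rfx2, -1.86 to 0.66 for Tcfl5, -1.48 to 0.78 for Sox30, -1.04 to 0.61 for Tbpl1 and -1.76 to 0.93 for Spz1. In both of these comparisons the lowest values came without IMA10 replicate 3 and the highest without IMA10 replicate 1.

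Equal replicate numbers did not deviate together in all pairs (r of deviations from -0.77 to 0.55), so they name samples and do not pair them. With the replicate number as a block, 4 regulators were called in Sa minus Con, 4 in IMC minus Con, 5 in IMA10 minus Con and 0 in the other comparisons. Of all 15472 genes, 2481, 2917 and 2972 were called lower in the comparisons with Con, in that order. Those called higher were 7820, 7635 and 7017, and the other comparisons called 0. Rfx2 in IMC minus Con (limma adjusted p = 0.063) and Tcfl5 (0.0505) and Tbpl1 (0.0779) in IMA10 minus Con then missed the threshold.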

Other observations

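The ranking of the regulators by level differed between groups. By mean FPKM, the order in Con was Spz1, Tcfl5, Rfx2, Fhl5, Tbpl1, Sox30, Crem, Taf7l and Mybl1, and the ranges of all 8 neighbouring pairs were separate. In Sa the order was Tcfl5, Rfx2, Tbpl1, Spz1, Taf7l, Crem, Sox30, Fhl5 and Mybl1, and 7 of 8 neighbouring ranges overlapped. In IMC 7 of 8 overlapped and in IMA10 8 of 8.

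Genes of ciliary transport and motors, the kind of gene Rfx2 acts on, were set beside the regulators. Of the 6 tested, 1 fell and 1 rose in Sa minus Con (median -0.70), and 4 fell and 1 rose without IMA10 replicate 3. Over all genes 19.2% were called lower and 52.0% higher with all libraries. With median-of-ratios scaling 5 of the 6 fell and 0 rose, and with quantile normalization 2 fell and 0 rose. The dynein Dnah9 fell to 0.79, 0.67 and 0.71 FPKM in Sa, against 1.7, 2.09 and 1.98 FPKM in Con (log2 change -0.76 ± 0.17, limma adjusted p = 0.00284). Bbs4, a subunit of the BBSome, rose by 0.41 ± 0.15 (limma adjusted p = 0.0358), but its sign turned with median-of-ratios scaling, to -0.32. The transport gene Ift172 was at -1.71 ± 0.81 (limma adjusted p = 0.0804) and Ift122, the most abundant, at -1.10 ± 0.57 (limma adjusted p = 0.106).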
